A study of Mus musculus with 5 samples.

Results

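Principal cells of the collecting duct were examined in mouse kidneys after ischemia-reperfusion injury, a loss and return of blood flow that the labels call IRI. They were the cells that carry the deposited label for collecting duct principal cells (CD: PCs), 741 of 23797 labelled cells. Single-cell RNA sequencing with the 10x 3′ kit gave 1 library a mouse: the 48 h group is mice 1 and 2, and the day 10 group is mice 3, 4 and 5, timed from the injury. Strain, sex, age, genotype, the duration of ischemia and the kidney sampled are not given in the sources used here, and no uninjured kidney is among these samples, so each difference is between 2 times after injury. No batch is given, and p-values measure the spread between these libraries.

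Principal cells reabsorb water and sodium in the last part of the nephron. Vasopressin acts through its receptor Avpr2 and cyclic AMP to place the water channel Aqp2 in the apical membrane and to raise transcription of its gene, and water leaves the cell through Aqp3 and Aqp4. Aldosterone acts through the mineralocorticoid receptor Nr3c2, which the enzyme Hsd11b2 shields from glucocorticoids, to raise uptake of sodium through the epithelial sodium channel. After ischemic injury the collecting duct is known for a reduced capacity to concentrate urine and for release of the iron-carrier-binding protein Lcn2.

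Mice 1 to 5 gave 130, 134, 144, 117 and 216 principal cells with a median of 17699 to 22004 unique transcript counts (UMIs) a cell and 2295625 to 4015392 UMIs in all. The median mitochondrial share per cell was 8.90 to 10.5% in the 5 mice. All 741 cells belonged to 1 deposited cluster which also held 362 connecting tubule, 273 distal convoluted tubule and 633 injured distal tubule cells. Each of the 10 pairs of libraries shared 10 to 23 cell barcodes, and none of these was labelled a principal cell in both libraries. Of the defining markers, Fxyd4 and Hsd11b2 were found in most principal cells. After each cell was thinned to 5000 UMIs, Fxyd4 was found in 94.4 to 99.2% and Hsd11b2 in 88.1 to 94.1% of principal cells of a mouse. Of proximal tubule cells, which should lack both, at most 19.2 and 4.30% held them. Aqp2 was found in 91.6 and 96.6% of principal cells in mice 1 and 2 and in 56.3, 73.6 and 65.5% in mice 3, 4 and 5. For Aqp3 the shares were 77.6 and 89.8% and then 35.7, 61.3 and 46.7%. Hsd11b2 does not set principal cells apart from connecting tubule cells, where its level was higher in each mouse. The proximal tubule cells had median depths of 5967 to 18427.5 UMIs before thinning.

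No difference in the share of principal cells among labelled cells passed the test. The share was 2.66 and 3.6% in mice 1 and 2 and 2.44, 2.99 and 4.03% in mice 3, 4 and 5. The groups overlapped, and the log2 fold change was 0.01 (SE 0.40, adjusted p = 0.975 over 18 labels). As shares of all labels sum to a fixed total, fewer principal cells and more of other cells cannot be told apart.

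Few principal cell genes passed the main test of day 10 against 48 h. UMIs of all principal cells of a mouse were summed and tested with edgeR's quasi-likelihood test with Benjamini-Hochberg adjustment over 11152 genes, of which 7 passed an adjusted p of 0.05 (0.0628%): 5 were higher (0.0448%) and 2 lower (0.0179%) at day 10. At an unadjusted p under 0.05, 610 genes were higher (5.47%) and 569 lower (5.10%), and the counts scaled to 1000000 UMIs (CPM) of the 2 groups did not overlap for 2644 higher (23.7%) and 844 lower genes (7.57%). The median log2 fold change over all tested genes was -0.01, and 0.12 when libraries were scaled to their totals alone. The CPM are scaled to totals, so they lie higher at day 10 than in the test, where 5398 genes were higher and 5754 lower. Its TMM scaling factors were 0.924 and 0.969 at 48 h and 1.02 to 1.06 at day 10. The part of this scaling in the counts without overlap was not tested. The number that passed moved with the mice and the tool: 134 without mouse 1, 75 without mouse 2, 3 without mouse 3 and 103 with the DESeq2 Wald test.

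Ptprs, a receptor-type tyrosine phosphatase that binds proteoglycans, rose. Its level was 10.7 and 12.1 CPM in mice 1 and 2 and 66.0, 75.4 and 76.0 CPM in mice 3, 4 and 5, a difference of 2.53 on the log2 scale (adjusted p = 0.00432, SE 0.18). The groups were far apart and each was tight. More cells carried the transcript at day 10: in thinned cells it was found in 5.61 and 7.63% at 48 h and in 26.2, 33 and 28.9% at day 10, against 0.529 to 3.28% of proximal tubule cells. The rise was not confined to principal cells. Ptprs went from 9.18 and 11.4 CPM to 28.6 to 34.5 CPM in the thick ascending limb. In the connecting tubule it went from 22.8 and 45.6 CPM to 46.6 to 102 CPM, and in intercalated cells from 4.14 and 12.4 CPM to 13.8 to 17.8 CPM. In injured distal tubule cells the times overlapped. The call was lost when the injured distal tubule cells were added (log2 fold change 1.62, adjusted p = 0.119).

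Ethe1, a mitochondrial dioxygenase that clears sulfide, fell. It was at 139 and 160 CPM in mice 1 and 2 and at 69.8, 69.3 and 69.2 CPM in mice 3, 4 and 5, a difference of -1.23 on the log2 scale (adjusted p = 0.0424, SE 0.14). The 3 day 10 mice were nearly identical and lay below both 48 h mice. This call was close to the threshold and was lost without mouse 3 (adjusted p = 0.343), mouse 4 (0.137) or mouse 5 (0.275), while the log2 fold change stayed between -0.87 and -1.34 over 17 alternatives. Ethe1 was found in 51.4 and 44.9% of thinned cells at 48 h and in 29.4, 23.6 and 25.9% at day 10, and in 41.5 to 59.0% of proximal tubule cells, so the part of free RNA in its level cannot be read from these shares and was not tested. Etfb, the electron transfer flavoprotein subunit of fatty acid oxidation, moved by a like amount without passing, from 399 and 412 CPM to 222, 186 and 240 CPM (log2 fold change -1.04, adjusted p = 0.0866).

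Apoe, a lipid carrier abundant in macrophages, and the 3 complement C1q chains were also higher at day 10. Apoe went from 17.8 and 17.3 CPM to 357, 372 and 358 CPM (adjusted p = 0.000207, log2 fold change 4.23, SE 0.17), and C1qa (log2 fold change 3.87), C1qb (3.21) and C1qc (4.56) from at most 4.07 CPM to between 21.3 and 49.8 CPM. Apoe was named after its values were seen, and the C1q chains are among the 12 immune markers. In thinned cells Apoe was found in 8.41 and 7.63% of principal cells at 48 h and 59.5, 67.9 and 66.0% at day 10, below the 48.7 and 30.4% and the 84.1, 95.6 and 87.3% of proximal tubule cells of the same mice, and C1qa at day 10 in 10.3 to 13.2 and 10.0 to 12.9%. C1qc was found in 7.14, 17.9 and 7.11% of principal and 5.82, 8.74 and 8.01% of proximal tubule cells. Apoe was also higher at day 10 in other labels of the same mice. It went from 4.55 and 17.8 CPM to 170 to 379 CPM in the connecting tubule. In intercalated cells it went from 14.5 and 12.4 CPM to 198 to 904 CPM. Thick ascending limb cells went from 19.6 and 10.2 CPM to 603 to 775 CPM, and immune cells from 2518 and 1756 CPM to 35082 to 41828 CPM. The C1q chains were higher at day 10 in each of these labels too. The part of free RNA in these 4 genes was not tested. The C1q calls were lost without mouse 3 (adjusted p 0.0993 to 0.280) and without mouse 5 (0.0555 to 0.138).

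The last of the 7 genes, the basal keratin Krt15, came almost wholly from 2 cells. Of its 229 UMIs in mouse 1, 217 came from 1 cell, and all 268 UMIs of mouse 2 came from 1 cell, while mice 3, 4 and 5 had 0 UMIs, which makes the summed level at least 286-fold lower at day 10 (against a floor of 3 counts over the group). Krt5, a further basal keratin, was in the same position with 96, 30, 0, 0 and 0 UMIs, 93 and 30 of them in 1 cell of mouse 1 and mouse 2. Without the 3 cells holding at least 3 UMIs of the 2 keratins Krt15 was no longer among the tested genes. Krt15 remained in day 10 libraries under another label. Cells labelled TEC held 800 and 1447 CPM in mice 1 and 2 and 0, 636 and 237 CPM in mice 3, 4 and 5. The 6 urothelium markers summed to 38.1 and 15.7 CPM at 48 h and 0.379 to 0.498 CPM at day 10. Krt5 is 1 of these 6, so the sum holds the UMIs of the same cells and is no separate observation.

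The markers that define principal cells were lower at day 10, but none of the 4 passed in edgeR. Aqp2, the vasopressin-regulated apical water channel, was at 3303 and 3821 CPM in mice 1 and 2 and at 923, 1713 and 1346 CPM in mice 3, 4 and 5 (unadjusted p = 0.00053, adjusted p = 0.134, log2 fold change -1.55, SE 0.27). The basolateral water channel Aqp3 was at 560 and 925 CPM against 176, 442 and 320 CPM (adjusted p = 0.281, log2 fold change -1.37, SE 0.37). Fxyd4, which modulates the sodium pump, was at 3570 and 7605 CPM against 2110, 2759 and 2123 CPM (adjusted p = 0.238, log2 fold change -1.38, SE 0.32). In these 3 genes every day 10 mouse lay below both 48 h mice, with mouse 4 the highest of its group and mouse 2 above mouse 1.

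Hsd11b2, the enzyme that inactivates glucocorticoids, differed least, with 1644 and 2658 CPM at 48 h and 1632, 1574 and 1860 CPM at day 10 (adjusted p = 0.494, log2 fold change -0.48, SE 0.22). Its groups overlapped, and mouse 2 stood above the other four. The median log2 fold change of the 4 markers was -1.37 beside -0.01 over all tested genes, and 3 of the 4 had an unadjusted p under 0.05 and lower CPM without overlap. Among all tested genes 5.10% were lower at that p and 7.57% lower without overlap. None passed with limma, and Aqp2, Aqp3 and Fxyd4 passed with DESeq2 (adjusted p 4.28e-06, 0.0222 and 0.00139). Over 17 alternatives the log2 fold change of Aqp2 was -1.80 to -1.35 and its adjusted p 4.28e-06 to 0.550, with 4 past the threshold, among them the fit without mouse 1 (0.0339). Without mouse 1 Fxyd4 (log2 fold change -1.80, adjusted p = 0.00614) and Hsd11b2 (-0.75, 0.0497) passed as well. Without mouse 2 the log2 fold change was -0.78 for Fxyd4 (adjusted p = 0.107), -0.12 for Hsd11b2 (0.704) and -1.0 for Aqp3 (0.255).

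**Figure D1:**
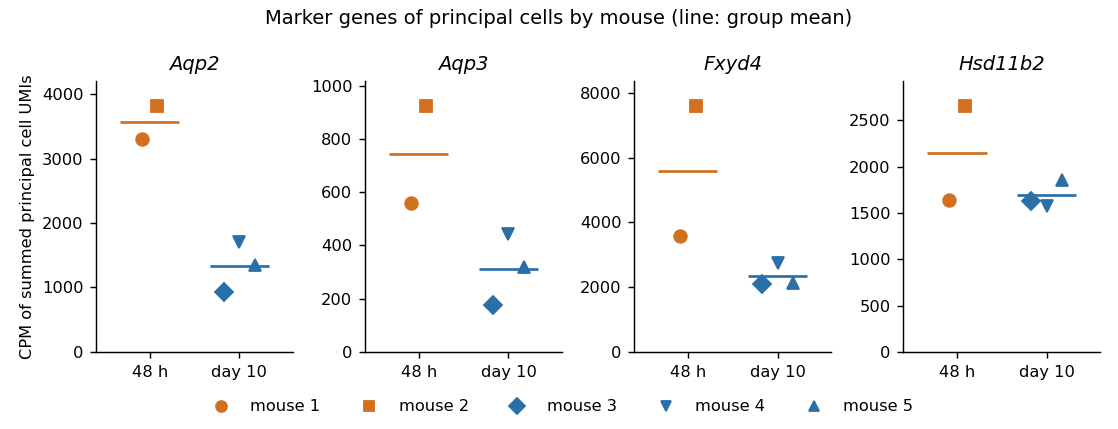
CPM of the principal cell markers Aqp2, Aqp3, Fxyd4 and Hsd11b2 (y axes from 0, a scale for each gene) at 48 h and day 10, 1 point a mouse and a line at the group mean. For Aqp2, Aqp3 and Fxyd4 all 3 day 10 mice lie below both 48 h mice, while for Hsd11b2 mouse 5 lies above mouse 1.

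As Aqp2 had the lowest log2 fold change among the water transport genes, the 250 bases before its start on the plus strand of chromosome 15 (chr15:99578806-99579055, mouse build GRCm38.p6, from RefSeq) are shown, 5′ to 3′. Capitals mark matches to TGACG, the core of the cyclic AMP response element, and to GATAA, bound by GATA factors, each on either strand, and to TATAA on the strand of the gene.

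Aqp2: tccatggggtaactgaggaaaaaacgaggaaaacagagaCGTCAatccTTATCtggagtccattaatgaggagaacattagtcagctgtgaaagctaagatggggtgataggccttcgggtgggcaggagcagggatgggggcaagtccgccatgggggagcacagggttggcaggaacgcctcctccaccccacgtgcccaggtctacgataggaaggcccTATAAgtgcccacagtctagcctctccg

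The window held 1 reverse match to TGACG beginning 211 bases and 1 reverse match to GATAA beginning 202 bases before the start, and TATAA 28 bases before it. Of 32851 promoter windows of the same length 17.8% held TGACG, 22.6% GATAA and 16.0% TATAA on the strand of the gene, with no overlap between the matches in the Aqp2 window. In the same window Aqp3 held TATAA 29 bases before the start and neither of the other motifs, and Fxyd4 held none of the 3. These matches describe letters only, and binding was not measured.

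Other genes of water transport lay lower as well. Of 25 listed genes 19 passed the filter on low counts, 0 passed in edgeR or limma and 3 (Aqp2, Aqp3 and Avpr2) in DESeq2. At an unadjusted p under 0.05, 8 were lower and 0 higher, and the groups did not overlap for 6 lower and 2 higher genes. Among all tested genes 5.10% were lower and 5.47% higher at that p, and 7.57% lower and 23.7% higher without overlap. Their median log2 fold change was -0.26.

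The vasopressin receptor Avpr2 was at 130 and 176 CPM at 48 h and 83.1, 85.8 and 90.9 CPM at day 10 (adjusted p = 0.131, log2 fold change -0.95, SE 0.16), with all day 10 mice below both 48 h mice, and it passed without mouse 1 (adjusted p = 0.0184). The same order held for the prostaglandin E2 receptor Ptger1, at 61.8 and 57.5 CPM and then 34.1, 24.4 and 45.6 CPM (log2 fold change -0.90, adjusted p = 0.273), and for Crem, a cyclic AMP response element modulator (log2 fold change -0.84). The basolateral water channel Aqp4 had 368 and 767 CPM against 171, 369 and 232 CPM (log2 fold change -1.26, adjusted p = 0.336), where mouse 4 just reached mouse 1. Gnas, the stimulatory G protein subunit, was at 580 and 768 CPM against 619, 620 and 601 CPM, and Prkaca, the catalytic subunit of protein kinase A, at 35.5 and 43.0 CPM against 41.0, 42.3 and 41.8 CPM. Both Gnas and Prkaca overlapped between the groups. The other catalytic subunit Prkacb was at 55.9 and 54.7 CPM against 70.9, 80.6 and 78.4 CPM (log2 fold change 0.34, adjusted p = 0.484), with the day 10 mice above both 48 h mice.

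Sodium and potassium transport showed no common direction. Of 13 listed genes 12 were tested, 0 passed in edgeR or limma and 3 (Fxyd2, Fxyd4 and Kcne1) in DESeq2, and 1 was higher and 3 lower at an unadjusted p under 0.05, with a median log2 fold change of -0.17. For all tested genes the shares at that p were 5.47% higher and 5.10% lower. Kcne1, a regulatory subunit of potassium channels, was at 37.0 and 37.8 CPM at 48 h and 78.5, 74.1 and 76.7 CPM at day 10 (adjusted p = 0.127, log2 fold change 0.90, SE 0.15). Each group of Kcne1 values was narrow and the groups were apart. Fxyd2, the gamma subunit of the sodium pump, was at 291 and 210 CPM against 129, 51.8 and 144 CPM (log2 fold change -1.35, adjusted p = 0.305), and the potassium channel Kcnj16 had a log2 fold change of -0.58 (adjusted p = 0.363).

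The 3 subunits of the epithelial sodium channel did not follow the water channels. The alpha subunit Scnn1a was at 89.6 and 155 CPM against 163, 355 and 171 CPM (adjusted p = 0.521, log2 fold change 0.79, SE 0.39), with mouse 4 far above the rest. In thinned cells of mouse 4 Scnn1a was found in 76.4%, against 33.6 to 52.8% in the other four mice. Mouse 4 was also highest for Scnn1a in the connecting tubule (482 against 155 to 279 CPM). The same held in intercalated cells (297 against 159 to 224 CPM) and the thick ascending limb (181 against 38.3 to 77.8 CPM). Scnn1b (log2 fold change 0.19) and Scnn1g (0.19) overlapped between the groups. The sodium pump subunit Atp1b1, at 2239 and 1736 CPM against 2148, 2155 and 2017 CPM, overlapped too.

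In the aldosterone and glucocorticoid list 15 of 16 genes were tested and 0 passed in edgeR, limma or DESeq2, with 0 at an unadjusted p under 0.05 and a median log2 fold change of 0.05. The receptors Nr3c2, at 33.7 and 39.8 CPM against 25.8, 37.0 and 32.1 CPM, and Nr3c1, at 19.6 and 22.1 CPM against 18.6, 14.8 and 22.7 CPM, overlapped between the times. Sgk1, a kinase that both hormones induce and that keeps the sodium channel at the surface, was at 43.7 and 35 CPM against 23.9, 226 and 20.9 CPM. Only mouse 4 was high: Sgk1 was found in 43.4% of its thinned cells and in 6.09 to 13.1% of those of the other four mice, where 9.42 to 15.8% of proximal tubule cells held it. The glucocorticoid targets Fkbp5, at 71.4 CPM against 12.0 to 26.9 CPM, and Mt1, at 1015 CPM against 313 to 579 CPM, were also highest in mouse 4. This was not confined to principal cells. In the connecting tubule mouse 4 had 343 CPM of Sgk1 against 30.3 to 126 CPM in the other mice. There Fkbp5 was at 109 CPM in mouse 4 against 13.7 to 32.1 CPM, and Mt1 at 1992 CPM against 813 to 1295 CPM.

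Most transcription factors of the collecting duct overlapped between the times. All 20 listed factors were tested, 0 passed in edgeR or limma and 1 (Elf5) in DESeq2, 3 were higher and 2 lower at an unadjusted p under 0.05, and their median log2 fold change was 0.01. At that p 5.47% of all tested genes were higher and 5.10% lower. Gata3, a factor needed for the collecting duct, was at 194 and 221 CPM against 241, 211 and 282 CPM. Gata2, which acts on Aqp2, was at 83.3 and 109 CPM against 105, 107 and 125 CPM, and Tfcp2l1, a regulator of both collecting duct cell types, at 433 and 444 CPM against 467, 403 and 444 CPM. All 3 overlapped between the groups. Elf5, an ETS factor of the principal cell, stood apart with 110 and 102 CPM at 48 h and 41.7, 40.9 and 62.0 CPM at day 10 (adjusted p = 0.113, log2 fold change -1.26, SE 0.20). It was found in 38.3 and 36.4% of thinned cells at 48 h and in 17.5, 12.3 and 22.8% at day 10, against at most 0.529% of proximal tubule cells. Pax8 (log2 fold change 0.49, adjusted p = 0.362) and the intercalated cell factor Foxi1 (1.57, adjusted p = 0.321) were higher without overlap, and Tfap2b was lower (-0.48, adjusted p = 0.381).

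**Figure D2:**
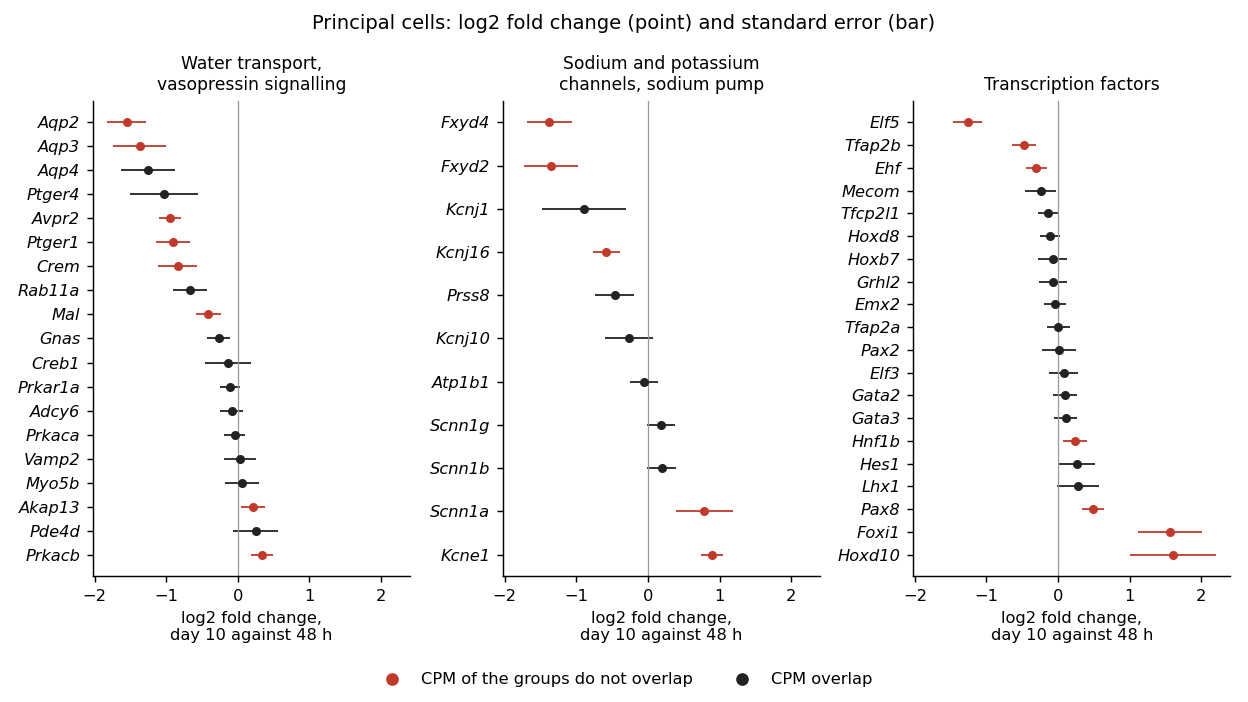
Log2 fold change of day 10 against 48 h (x axis, points) with its standard error (bars) for tested genes of water transport and vasopressin signalling, of sodium and potassium transport and of collecting duct transcription factors, red where the CPM of the groups do not overlap. Aqp2 at -1.55, Fxyd4 at -1.38 and Elf5 at -1.26 are the lowest of their lists, and most transcription factors lie near 0.

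The lower Aqp2 level went with a larger share of cells with 0 Aqp2 UMIs after thinning. These are called cells without Aqp2 below, though thinning can remove UMIs that a cell held at full depth. Thinned to 5000 UMIs each, with 23, 16, 18, 11 and 19 shallower cells left out, 9 of 107 and 4 of 118 principal cells had 0 Aqp2 UMIs at 48 h, which is 8.41% (95% exact binomial interval 3.92 to 15.4%) and 3.39% (0.931 to 8.45%). At day 10 the counts were 55 of 126, 28 of 106 and 68 of 197, or 43.7% (34.8 to 52.8%), 26.4% (18.3 to 35.9%) and 34.5% (27.9 to 41.6%). Every day 10 mouse lay above both 48 h mice. The mean was 5.90% (SD 3.55, n = 2) at 48 h and 34.9% (SD 8.62, n = 3) at day 10, with an exact two-sided permutation p of 0.2, the smallest that 2 against 3 mice can give. The intervals cover counting error only.

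Cells in which Aqp2 was found also held less of it at day 10. The mean over cells with at least 1 Aqp2 UMI was 19.8 and 20.6 UMIs at 48 h and 9.44, 12.5 and 11 UMIs at day 10, and the median over all cells was 14.0 and 17.5 UMIs against 1.0, 2.5 and 3.0 UMIs. Cells with exactly 1 Aqp2 UMI numbered 2 and 3 at 48 h and 16, 11 and 20 at day 10, while 1.81 to 3.28% of proximal tubule cells had an Aqp2 UMI. Before thinning, the day 10 cells without Aqp2 had median depths of 21275, 24699 and 20792 UMIs, above the 18331, 19890.5 and 17260 UMIs of the cells with Aqp2.

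**Figure D3:**
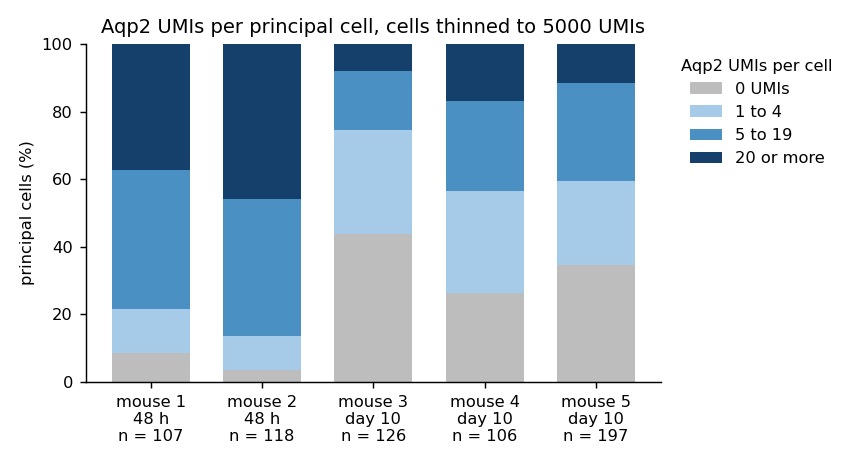
Share of principal cells (y axis, percent) with 0, 1 to 4, 5 to 19 and 20 or more Aqp2 UMIs after thinning each cell to 5000 UMIs, 1 bar a mouse with its number of cells. Cells with 0 UMIs make up 8.41 and 3.39% at 48 h and 26.4 to 43.7% at day 10.

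At day 10 the cells without Aqp2 were also low in the other 3 markers and in most genes of sodium and potassium transport. The values that follow are means over thinned cells in mice 3, 4 and 5, given as a description with no test, since the split uses Aqp2 itself and the cells of a mouse share a library. Aqp3 was at 0.0909, 0.143 and 0.147 UMIs a cell in the cells without Aqp2 and at 1.70, 3.32 and 2.74 UMIs in the cells with it. Hsd11b2 was at 4.22, 3.18 and 3.81 against 13, 10.3 and 13.7 UMIs, and Fxyd4 at 7.55, 7.82 and 6.50 against 13.8, 16.8 and 13.3 UMIs. Both lay above the proximal tubule, where the mean was at most 0.217 UMIs for Fxyd4 and 0.0586 for Hsd11b2. Of the sodium and potassium transport list 11 of 12 genes were lower in the cells without Aqp2 in all 3 mice and 0 higher, of the water transport list 8 of 18 lower and 2 higher, of the aldosterone and glucocorticoid list 3 of 15 lower and 3 higher, and of the transcription factors 9 of 19 lower, among them Gata3 and Tfcp2l1, and 0 higher.

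Single genes outside these lists differed in other ways. Krt7, a keratin of simple epithelia, was at 4.51, 6.46 and 4.25 against 4.46, 5.36 and 4.19 UMIs, and the adhesion molecule Epcam at 7.31, 8.04 and 6.82 against 6.30, 7.31 and 6.06 UMIs. Lcn2 was at 47.3, 53.6 and 36.7 UMIs in the cells without Aqp2 against 24.4, 24.9 and 23.7 UMIs, and the calcium-binding S100a6 at 12.8, 19.7 and 16.5 against 6.24, 5.72 and 4.30 UMIs. Pigr, the transporter of polymeric immunoglobulins across epithelia, was at 2.38, 0.929 and 2.10 against 0.239, 0.308 and 0.636 UMIs. Krt7, Epcam, Lcn2, S100a6 and Pigr were chosen here after their values were seen. At 48 h only 9 and 4 cells had no Aqp2, and 0 of those carried Pigr.

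**Figure D4:**
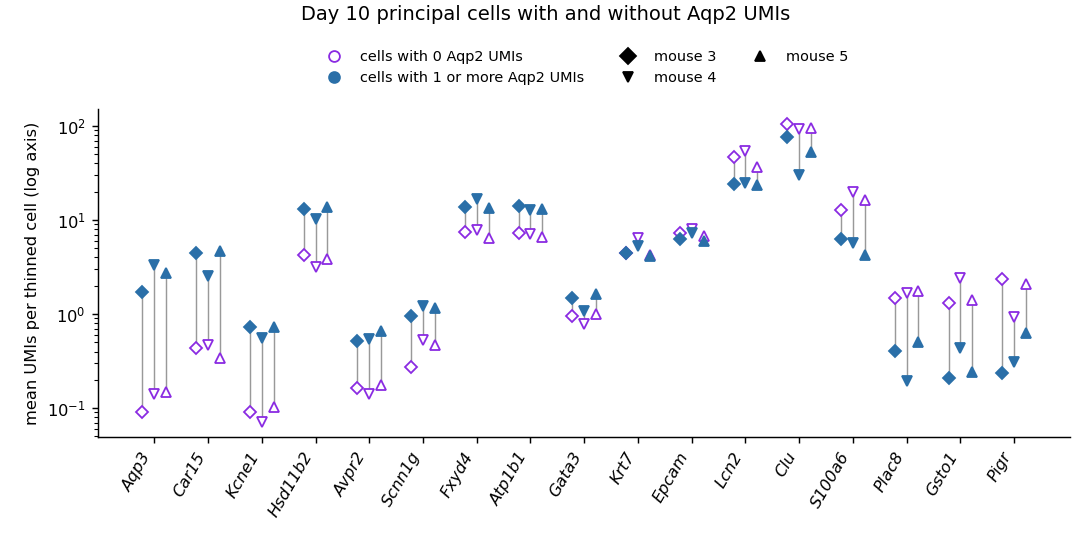
Mean UMIs per thinned cell (log y axis) of 17 genes in day 10 principal cells with 0 Aqp2 UMIs (open symbols) and with at least 1 (filled symbols), mice 3, 4 and 5 joined by lines within a mouse. Aqp3, Car15 and Kcne1 are the furthest below in the cells without Aqp2, Krt7 and Epcam are nearly level, and Lcn2, S100a6, Plac8, Gsto1 and Pigr are higher.

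Pigr was among the genes with the smallest unadjusted p that did not pass over all genes. It was at 4.81 and 15.3 CPM in mice 1 and 2 and 256, 81.5 and 199 CPM in mice 3, 4 and 5 (adjusted p = 0.111, log2 fold change 4.04, SE 0.61), and in thinned cells in 2.80 and 6.78% against 31.0, 18.9 and 29.9%. In proximal tubule cells Pigr was found in 2.17 to 6.45%, and by mouse in 3.17 and 2.17% at 48 h and 5.82, 2.19 and 6.45% at day 10, so the share in principal cells was above it in mice 2 to 5 and not in mouse 1. Il18r1, the interleukin 18 receptor, was at 11.1 and 6.03 CPM against 41.7, 81.0 and 57.0 CPM (log2 fold change 2.65, adjusted p = 0.0921) and the cholesterol exporter Abca1 at 20.4 and 23.7 CPM against 63.0, 87.6 and 71.5 CPM (1.61, adjusted p = 0.0744). Il18r1 was also higher at day 10 in the connecting tubule (1.52 and 1.11 against 14.5 to 19.4 CPM). The same held in the thick ascending limb (1.56 and 0.734 against 12.7 to 15.3 CPM) and intercalated cells (11.7 and 10.6 against 22.5 to 32.0 CPM). The nucleotide exporter Abcc4 (1.23, adjusted p = 0.0813), Ociad2 (1.25), Plac8 (1.87) and the oxidase subunit Cyba (0.99) were higher without overlap and did not pass. Pigr passed without mouse 2 (adjusted p = 0.0314), Il18r1 without mouse 1 (0.0242) and Plac8 without mouse 4 (0.0265). When injured distal tubule cells were added, the log2 fold change of Pigr was -0.12 and that of Abca1 0.43. In those injured cells, which share the deposited cluster, Pigr was at 269 and 296 CPM at 48 h and 143, 51.7 and 180 CPM at day 10. Abca1 passed without mouse 1 (0.0388) or mouse 2 (0.0334).

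Grp, which encodes gastrin-releasing peptide, was among the lower genes of smallest p that did not pass. It was at 168 and 336 CPM in mice 1 and 2 and at 0.759, 2.61 and 15.7 CPM in mice 3, 4 and 5 (adjusted p = 0.0813, log2 fold change -5.25, SE 0.73). The transcript was spread over cells at 48 h, in 34 of 107 and 59 of 118 thinned cells, and was found in 1 of 126, 0 of 106 and 5 of 197 cells at day 10. Of proximal tubule cells at most 0.362% held it. Grp passed in 7 of 17 alternatives, including the fits without mouse 1 (adjusted p = 0.00936), mouse 2 (0.0246) and mouse 5 (0.0319). Car15, a membrane-bound carbonic anhydrase, was at 1317 and 935 CPM against 480, 447 and 585 CPM (adjusted p = 0.113, log2 fold change -1.30, SE 0.21).

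Inflammatory mediators and NF-kB genes were mostly higher at day 10 at low levels. Of 16 tested genes of 20, 9 were higher and 0 lower at an unadjusted p under 0.05, 11 were higher without overlap and 0 passed in edgeR, limma or DESeq2, with a median log2 fold change of 0.67. Over all tested genes 5.47% were higher and 5.10% lower at that unadjusted p, and 23.7% were higher without overlap. The NF-kB subunits Relb, at 13 and 12.5 CPM against 37.9, 20.9 and 37.6 CPM (log2 fold change 1.21, adjusted p = 0.255), Nfkb1 (0.75) and Nfkb2 (0.67) and the chemokines Cxcl2 (2.50, adjusted p = 0.134) and Cxcl10 (3.56) were named after their values were seen. Cxcl10 had 3.7 and 0 CPM at 48 h, so its value moved to 9.19 without mouse 1, against a group at 0 where it gives no bound, and to 2.62 without mouse 2. With injured distal tubule cells added the log2 fold changes were -1.49 for Cxcl2 and -1.37 for Cxcl10. Relb was found in 3.74 and 5.08% of thinned cells at 48 h and in 15.1, 13.2 and 16.8% at day 10, above the 1.09 to 2.65% of proximal tubule cells. Cxcl2, in 0.847 to 2.54% of principal and 0 to 1.64% of proximal tubule cells, is not told from background. The 12 immune markers, listed separately, summed to 89.95 and 874 CPM at 48 h and 326 to 447 CPM at day 10. This sum mixes directions, as 8 of the 12 were higher and 4 lower at day 10. The part of immune cells in these values was not tested.

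Tubular injury markers did not move as a group. Of 17 tested markers of 20, 6 were higher and 2 lower at an unadjusted p under 0.05, 0 passed in edgeR or limma and 2 (Basp1 and Icam1) in DESeq2, and the median log2 fold change was 0.15. Over all tested genes 5.47% were higher and 5.10% lower at that unadjusted p. The 3 most abundant were high throughout. Clu, a secreted chaperone, was at 17312 and 14701 CPM against 18673, 9552 and 13282 CPM, and Lcn2 at 11398, 4968, 7274, 6648 and 6069 CPM in mice 1 to 5, both with overlap. Spp1, the matrix protein osteopontin, was at 23329 and 7138 CPM against 6206, 4607 and 5475 CPM (adjusted p = 0.314, log2 fold change -1.64, SE 0.46). Without mouse 1 the log2 fold change was -0.49 (adjusted p = 0.205) and without mouse 2 -2.27 (0.000692), and Spp1 was found in 96.4 to 100% of proximal tubule cells. The membrane-bound signalling protein Basp1 (1.66, adjusted p = 0.191) and the adhesion molecule Icam1 (2.16, adjusted p = 0.236) were higher without overlap, and Icam1 was found in 3.77 to 11.9% of day 10 principal cells and 3.28 to 9.24% of proximal tubule cells.

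Markers of other cells moved alongside some of these genes. The 5 thick ascending limb markers summed to 432 and 180 CPM at 48 h and 31.8 to 99.4 CPM at day 10, with 4 of 5 lower, and the 6 endothelial markers to 57.7 and 66.0 CPM against 10.6 to 53.8 CPM, with all 6 lower. The 8 intercalated cell markers summed to 8.14 and 37.8 CPM against 56.1 to 85.4 CPM, with 7 of 8 higher, while the type B marker Slc26a4 was at 0 in mice 1, 2 and 3. The 5 connecting tubule markers summed to 301 and 427 CPM against 893, 283 and 770 CPM, with 4 of 5 higher. The 3 distal convoluted tubule markers summed to 7.77 and 4.42 CPM against 10.0 to 24.7 CPM, with Pvalb at 0 in every mouse. The 10 proximal tubule markers summed to 525 and 604 CPM against 211 to 715 CPM. The 4 hemoglobin genes ranged from 0.436 CPM in mouse 4 to 1834 CPM in mouse 5. The part of these cells or of free RNA in the differences above was not tested. Aqp2 was found in at most 3.28% of proximal tubule cells in any mouse.

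Whether the time difference was particular to principal cells was tested against 3 neighbouring labels of the same mice, with the mouse as a block: connecting tubule (362 cells), intercalated cells (623 cells) and thick ascending limb (1935 cells). The difference of log2 fold changes passed for 10 of 11521 genes against the connecting tubule (0.0868%), 24 of 11662 against intercalated cells (0.206%) and 516 of 12545 against the thick ascending limb (4.11%).

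The Aqp2 difference was more negative in principal cells than in the connecting tubule, by -1.11 (SE 0.17, adjusted p = 0.0390). Connecting tubule cells held 936 and 1176 CPM of Aqp2 at 48 h and 564, 1157 and 871 CPM at day 10, so in the connecting tubule mouse 4 lay between the 48 h mice, and in principal cells below both. The call was lost without mouse 3 (adjusted p = 0.0635), mouse 4 (0.0723) or mouse 5 (0.159), with the difference between -1.19 and -1.05. Fxyd4 showed a difference of -1.14 that did not pass (adjusted p = 0.0894), and Hsd11b2 one of -0.19. Connecting tubule cells held 2437 to 3490 CPM of Hsd11b2, above principal cells of the same mouse in each case. Of Fxyd4 they held 1233 to 1884 CPM, below principal cells in each mouse. Against intercalated cells no difference passed for Aqp2 (-0.02, SE 0.74, adjusted p = 1.0), Fxyd4 (0.78, adjusted p = 0.106) or Hsd11b2 (-0.06), and within intercalated cells the log2 fold change was -1.13 for Aqp2 (adjusted p = 0.658) and -2.13 for Fxyd4 (adjusted p = 0.0251). Hsd11b2 differed from the thick ascending limb by -2.06 (adjusted p = 0.000368, passed without any 1 mouse), where it rose from 3.40 and 7.46 CPM to 19.1 to 20.3 CPM against at least 1574 CPM in principal cells of any mouse.

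Pigr was the gene whose time difference in principal cells passed against all 3 labels among those named by the rule. The difference was 3.54 against the connecting tubule (SE 0.51, adjusted p = 0.0335), 4.11 against intercalated cells (adjusted p = 0.0445) and 4.79 against the thick ascending limb (adjusted p = 0.000373). Pigr lay at 20.02 to 52.8 CPM in the connecting tubule, at 37.2 to 355 CPM in intercalated cells and at 39.8 to 122 CPM in the thick ascending limb, overlapping between the times in each. Injured distal tubule cells, where Pigr was lower in every day 10 mouse, were not among the labels tested. The call against the connecting tubule was lost without mouse 5 (adjusted p = 0.0552), that against intercalated cells without mouse 1 (0.113), mouse 3 (0.109) or mouse 5 (0.0936), and that against the thick ascending limb held without any 1 mouse. Plac8 differed from intercalated cells by 1.64 (adjusted p = 0.00249), also without any 1 mouse, and Abca1 by 1.68 (adjusted p = 0.0148), which was lost without mouse 2 (0.0921). Against the connecting tubule the difference did not pass for Plac8 (-0.36, adjusted p = 0.895) or Abca1 (1.69, adjusted p = 0.0582). Both genes were also higher at day 10 in the thick ascending limb. Plac8 went there from 14.7 and 14.9 CPM to 32.2 to 44.7 CPM, and Abca1 from 13.9 and 15.7 CPM to 31.2 to 45.5 CPM. For Ptprs the difference was 1.79 against the connecting tubule (adjusted p = 0.120) and 1.64 against intercalated cells (adjusted p = 0.182), which did not pass, and 1.21 against the thick ascending limb (adjusted p = 0.0147), a call lost without mouse 3 (0.0761), mouse 4 (0.0600) or mouse 5 (0.0815).

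**Figure D5:**
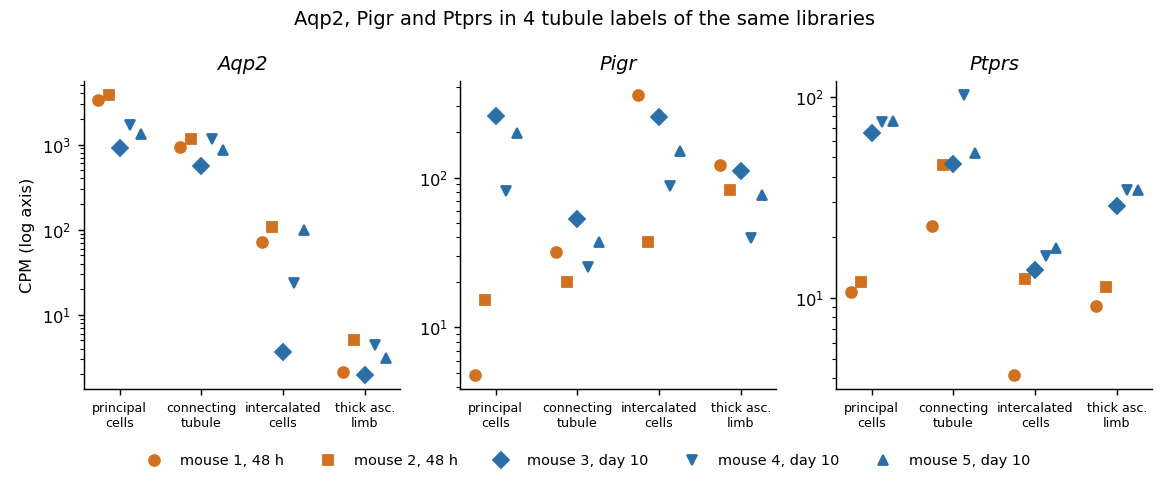
CPM (log y axis) of Aqp2, Pigr and Ptprs in principal cells, connecting tubule, intercalated cells and thick ascending limb, 1 point a mouse, by time. Pigr is at 4.81 and 15.3 CPM at 48 h and 81.5 to 256 CPM at day 10 in principal cells and overlaps between the times in the other labels shown.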

How the data were processed

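Cells of 5 mouse kidneys were read with 10x 3′ chemistry. The submitters' processing notes name the mm10 build with Seurat 4.0.5 and Cell Ranger 6.0.2, while the matrix headers name Cell Ranger 6.0.0. Values are raw UMI counts per gene and cell, as deposited by the authors. The deposited cell table gives labels and clusters and the mitochondrial percent of each cell, per the file headers. Its kept cells had at least 1000 UMIs and at most 6999 genes. How doublets were treated is not given in the sources used here, and no doublet caller was run.

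Counts of the cells labelled CD: PCs were summed per mouse and tested with edgeR 4.0.16 (R 4.3.3) by the quasi-likelihood test after filterByExpr with a minimum count of 10 and TMM scaling, with Benjamini-Hochberg adjustment and a threshold of 0.05. CPM are per 1000000 UMIs of the summed cells. The share of cells was tested by the same test on label counts. Time differences between labels were tested as an interaction with the mouse as a block. Differences in detection used cells thinned to 5000 UMIs, leaving out shallower cells. The proximal tubule cells were those labelled S1 and Lrp2+ S2/3. Alternatives used DESeq2 1.42.0, limma 3.58.1, other scalings and filters, fewer cells and each mouse left out; adding injured distal cells, limma, leaving out keratin-positive cells and thinning were chosen after seeing the data. The scripts were tested on simulated data. SciPy 1.17.1 gave exact tests and intervals.

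Genes of 5 principal cell lists could be named whatever their result. From other lists up to 4 passing genes each way and otherwise 2 were named, and from all genes up to 15 rises and falls with a mean log2 CPM of at least 5 and at least 0.2 times the level of all other cells, or, where under 10 passed, those of smallest p. Some genes the rule names are not reported here. Other genes are said to be chosen after their values were seen. The cells, lists and rule were chosen with earlier results of these data known.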

Additional observations from a re-analysis of the deposited data

Results flagged for a closer look

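The results here are genes named by the rule whose time difference was not the same in principal cells and a neighbouring label, by the interaction test of edgeR with Benjamini-Hochberg adjustment, given as log2 fold change in principal cells minus that in the other label.

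Against the connecting tubule the difference was 3.54 for Pigr, 1.67 for the calcium channel Trpv5, 1.12 for mt-Nd5, -2.44 for Krt80, -2.18 for S100a14, -1.24 for Arhgdib and -1.11 for Aqp2, and 0 of these 7 passed in all 5 fits that left out a mouse.

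Against intercalated cells it was 6.26 for the hemoglobin gene Hba-a1, 4.11 for Pigr, 2.60 for Gm49708, 2.26 for Rhou, 1.74 for Rasl11a, -2.10 for Rgs2, -1.47 for Tuba1a, -1.32 for Tuba4a and -0.91 for Ppp1r14b. Rasl11a and Rgs2 passed in all 5 such fits. Hba-a1 was lost without mouse 1 (adjusted p = 0.512) or mouse 5 (0.832).

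Against the thick ascending limb it was 7.78 for Hbb-bt, 6.73 for Hba-a2, 4.79 for Pigr, 2.25 for Olfm4, 2.22 for mt-Nd4l, -14.73 for Igfbp2, -4.14 for Muc20, -3.89 for Krt19, -3.89 for Hacd4 and -3.56 for Wnt4. Pigr, mt-Nd4l, Muc20, Krt19, Hacd4 and Wnt4 passed in all 5 fits. The Igfbp2 value depends on the prior count, as its thick ascending limb level was 0 CPM at 48 h, and gives no bound. The hemoglobin differences were lost without mouse 5, whose principal cells held 1834 CPM of the 4 hemoglobin genes.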

How the results depend on the processing

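The count of 7 principal cell genes past the threshold was 7 with DESeq2's size factors as scaling, 6 with library totals, 7 with a minimum of 30 counts, 7 without cells of 20% or more mitochondrial UMIs and 7 with limma. It was 100 without the filter on low counts, 4 at equal cells and UMIs per mouse, 3 without the 5% of cells with the most UMIs, 2 with injured distal cells, 15 with cells thinned and 103 with DESeq2, and 3 to 134 when a mouse was left out. Apoe passed in every one of these settings, and Ptprs in all but the one with injured distal cells. Leaving out mouse 1 or 2 leaves 1 sample at 48 h, which is assumed to vary like the day 10 mice. The causes were not tested.

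The log2 difference in the share of principal cells was -0.12 with TMM factors, -0.0037 with limma on logit shares, 0.39 over tubule labels and -0.20 to 0.25 when a mouse was left out. The count of genes differing from the connecting tubule was 1 to 157, from intercalated cells 18 to 75 and from the thick ascending limb 69 to 1247 when a mouse was left out.

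Of 1065 alternative values for 63 genes, 932 kept direction and side of the threshold, 28 lost and 94 gained the call and 11 changed sign. With injured distal cells the log2 fold change was -0.12 for Pigr, -1.49 for Cxcl2, -0.15 for Icam1, -1.37 for Cxcl10, 0.13 for Tfcp2l1 and 0.16 for Atp1b1, and with library totals 0.085 for Atp1b1. Leaving out a mouse gave -0.25 to 0.19 for Atp1b1, -0.97 to 1.55 for Sgk1, -0.045 to 0.27 for Gata2 and -0.94 to 0.33 for Lcn2. Keeping the deposited main cluster alone changed nothing, as it holds all 741 cells. No paired analysis was possible because the groups share no replicate numbers.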

Other observations

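Cell cycle transcripts of principal cells were highest in mouse 1. A UMI of Mki67 or Top2a was found in 22 of 107 thinned cells of mouse 1 (20.6%, 95% exact interval 13.4 to 29.5%) and in 3.39, 8.73, 4.72 and 7.11% of those of mice 2 to 5, so the 48 h mice lay on either side of the day 10 mice. All 20 S phase genes were lower at day 10 with a median log2 fold change of -0.62, and 0 had an unadjusted p under 0.05 in edgeR and 0 passed in DESeq2 or limma. Of all 11152 tested genes 5754 were lower.

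Of 19 nuclear genes of oxidative phosphorylation 17 were lower at day 10 and 3 had an unadjusted p under 0.05, with a median log2 fold change of -0.28, while the 13 mitochondrially encoded genes had a median of -0.03. Over all tested genes 5754 of 11152 were lower, and 5.10% were lower at that p. In the list of iron and oxidative stress genes, the ferritin heavy chain Fth1 was at 5074 and 4078 CPM at 48 h and 2921, 2777 and 2884 CPM at day 10 (log2 fold change -0.81), and the glutathione peroxidase Gpx1 had a log2 fold change of -0.68. Both passed in DESeq2 and not in edgeR.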
